A study of Homo sapiens with 8 samples.

Results

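The genes described here are the 246 protein-coding ZNF genes of human chromosome 19, those whose symbol in GENCODE 44 is ZNF followed by a number, out of 20033 protein-coding genes on the autosomes and sex chromosomes. They make up 246 of the 1476 protein-coding genes of chromosome 19, and the other 1230 served as the main comparison. The 262 genes with such a symbol on other chromosomes served as a further comparison. Membership rested on gene symbol and position alone, with no measured value.

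Most of these genes encode KRAB zinc finger proteins, a large family of transcriptional repressors. Each protein reads DNA through an array of C2H2 zinc fingers, and the KRAB domain recruits TRIM28 (KAP1), which brings in the histone methyltransferase SETDB1 and HP1 proteins to form H3K9me3 heterochromatin, chiefly over transposable elements. The family grew by tandem duplication and forms dense clusters on chromosome 19, where the finger-coding exons are known to carry H3K9me3 in many cell types.

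The bulk experiment comprised 8 ATAC-seq libraries of wild-type HepG2 cells, 1 for each combination of 0.1, 0.5, 1.0 or 5.0% formaldehyde (FA) with cryopreservation or flash freezing. The peak list of 1 library, fixed with 0.1% FA and cryopreserved, was analysed here, and the other libraries were not. HepG2 is a single human liver cancer line of hepatocyte character, so the values describe 1 line without replicates, and no test between conditions could be made. ATAC-seq marks accessible chromatin through insertion of adapters by the Tn5 transposase, and each peak carries a fold enrichment, the height of its summit over the local background that the peak caller estimated.

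The list held 60628 peaks, 2592 of them on chromosome 19. On chromosome 19 a summit held a median of 22 fragments (quartiles 13 and 37, range 4 to 135), a number calculated here from the fold and the -log10 p of the peak. No peak had a -log10 q under 3.01, and the library total was not used. Of 12 hepatocyte markers 11 had a peak at the transcription start site (TSS), ALB being the exception (exact interval 61.5 to 99.8%). The share over all protein-coding genes was 61.5%. Of 6 blood cell markers none had such a peak, which allows a share of up to 45.9% with an exact interval.

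Peaks that reached into the window of 1000 bp upstream and downstream of a canonical transcript start counted as TSS peaks, and where several did, the one with the highest fold was described. Intervals of shares are exact binomial (Clopper-Pearson) at a 95% level and cover counting error only. Neighbouring members arose by duplication and are not independent of each other, which these intervals ignore.

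The promoters of the members that the results turn on are shown first. Those of the ZNF101 to ZNF254 cluster are much alike in sequence, and so the set below pairs 3 of its members that had a TSS peak (ZNF714, ZNF430 and ZNF91) with 3 that had none (ZNF208, ZNF257 and ZNF492). Each run gives the 150 bases before the start in RefSeq on GRCh38.p14, 5' to 3' on the strand of the gene, with CCAAT on either strand in capitals. ZNF714 stands at chr19:21082053-21082202 on the plus strand, ZNF430 at chr19:21020507-21020656 (plus), ZNF91 at chr19:23395472-23395621 (minus), ZNF208 at chr19:22010944-22011093 (minus), ZNF257 at chr19:22052334-22052483 (plus) and ZNF492 at chr19:22634174-22634323 (plus).
ZNF714: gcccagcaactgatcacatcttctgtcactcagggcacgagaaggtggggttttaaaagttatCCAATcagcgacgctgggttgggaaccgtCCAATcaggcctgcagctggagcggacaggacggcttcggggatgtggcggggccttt
ZNF430: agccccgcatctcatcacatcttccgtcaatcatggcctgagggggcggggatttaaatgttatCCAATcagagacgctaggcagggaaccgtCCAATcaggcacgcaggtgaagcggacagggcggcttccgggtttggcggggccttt
ZNF91: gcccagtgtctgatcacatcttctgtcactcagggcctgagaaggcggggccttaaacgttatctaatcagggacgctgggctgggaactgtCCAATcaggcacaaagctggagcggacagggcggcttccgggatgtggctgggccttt
ZNF208: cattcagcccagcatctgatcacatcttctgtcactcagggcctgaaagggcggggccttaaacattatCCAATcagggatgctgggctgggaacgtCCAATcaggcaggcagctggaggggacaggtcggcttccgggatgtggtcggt
ZNF257: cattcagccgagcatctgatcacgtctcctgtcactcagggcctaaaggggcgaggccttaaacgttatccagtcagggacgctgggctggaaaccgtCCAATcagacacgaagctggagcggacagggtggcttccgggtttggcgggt
ZNF492: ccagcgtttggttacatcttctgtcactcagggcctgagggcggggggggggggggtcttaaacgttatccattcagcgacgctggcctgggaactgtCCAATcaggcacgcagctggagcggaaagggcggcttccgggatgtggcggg

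The other set comes from the distal end of the long arm and shows 1 promoter with a TSS peak (ZNF549) and 2 without (ZNF154 and ZNF132), all 3 of them from a list of genes known for promoter methylation in tumours. Here the capitals mark CG, the dinucleotide at which human DNA is methylated. ZNF549 lies at chr19:57527206-57527355 on the plus strand, ZNF154 at chr19:57709205-57709354 (minus) and ZNF132 at chr19:58440154-58440303 (minus). The 150 bases held 14 CG in ZNF549, 7 in ZNF154 and 12 in ZNF132.
ZNF549: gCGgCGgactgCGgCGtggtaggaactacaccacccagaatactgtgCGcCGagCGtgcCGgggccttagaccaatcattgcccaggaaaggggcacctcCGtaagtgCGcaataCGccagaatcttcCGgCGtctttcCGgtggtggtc
ZNF154: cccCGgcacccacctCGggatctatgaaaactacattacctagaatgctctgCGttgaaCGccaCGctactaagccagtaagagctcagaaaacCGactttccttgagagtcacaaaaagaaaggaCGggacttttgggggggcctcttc
ZNF132: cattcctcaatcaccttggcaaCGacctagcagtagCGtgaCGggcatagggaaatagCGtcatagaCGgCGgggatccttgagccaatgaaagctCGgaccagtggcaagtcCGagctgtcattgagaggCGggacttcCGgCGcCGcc

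Most ZNF genes of chromosome 19 had accessible promoters in this library. A TSS peak was present at 202 of 246 members (82.1%, interval 76.7 to 86.7%), against 693 of 1230 other chromosome 19 protein-coding genes (56.3%, interval 53.5 to 59.1%). Over all protein-coding genes the share was 61.5%, and over those of chromosome 19 it was 60.6%. The members' share was 1.46 times that of the other genes of their chromosome. It lay close to that of ZNF genes on other chromosomes, where 203 of 262 had a TSS peak (77.5%, interval 71.9 to 82.4%), and the intervals of these overlap. The ZFP, ZSCAN, ZIM and ZIK genes of chromosome 19, further zinc finger genes outside the symbol rule, had a TSS peak in 8 of 15 cases (53.3%, interval 26.6 to 78.7%).

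The TSS peaks of the members also had a higher fold and a smaller width than those of other chromosome 19 genes, most of which lie outside the ZNF clusters. Their median fold was 19.3 (interval of the median 18.1 to 20.1, range of values 6.12 to 32.2), against 16.2 (interval 15.5 to 16.7) at other chromosome 19 genes, 19.2 at ZNF genes of other chromosomes and 17.9 over all protein-coding genes. Their median width was 247.5 bp (interval 236 to 261 bp, range of values 104 to 686 bp), against 284 bp (interval 270 to 296 bp) at other chromosome 19 genes and 281 bp at ZNF genes elsewhere. The median number of fragments at the summit was 38 in members (interval 33 to 42) and 41 in other chromosome 19 genes (interval 38 to 43), and these intervals overlap. The higher fold, a ratio to the local background, thus did not go with more fragments at the summit.

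The peaks sat tightly on the start, as did those of ZNF genes on other chromosomes. Of the 202 TSS peaks of members 180 (89.1%) spanned the start base itself, against 486 of 693 (70.1%) at other chromosome 19 genes. At ZNF genes of other chromosomes it was 176 of 203 (86.7%), and over all protein-coding genes 77.2%. The summit lay within 150 bp of the start in 177 members (87.6%), against 427 other genes (61.6%). At ZNF genes of other chromosomes this share was 80.8%, and over all protein-coding genes 70.3%. The median summit position was -64.5 bp from the start in members and -84 bp in other chromosome 19 genes. More than 1 TSS peak was present at 44 of the 202 members with any (21.8%) and at 165 of the 693 other genes (23.8%). A peak at the TSS of another protein-coding gene as well was less frequent among the members than among other chromosome 19 genes. It was found at 32 of 202 members (15.8%, interval 11.1 to 21.6%), against 191 of 693 other genes (27.6%, interval 24.3 to 31.1%). The share was likewise 15.8% at ZNF genes of other chromosomes. Over all protein-coding genes it was 20.8%, inside the interval of the members.

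**Figure D1:**
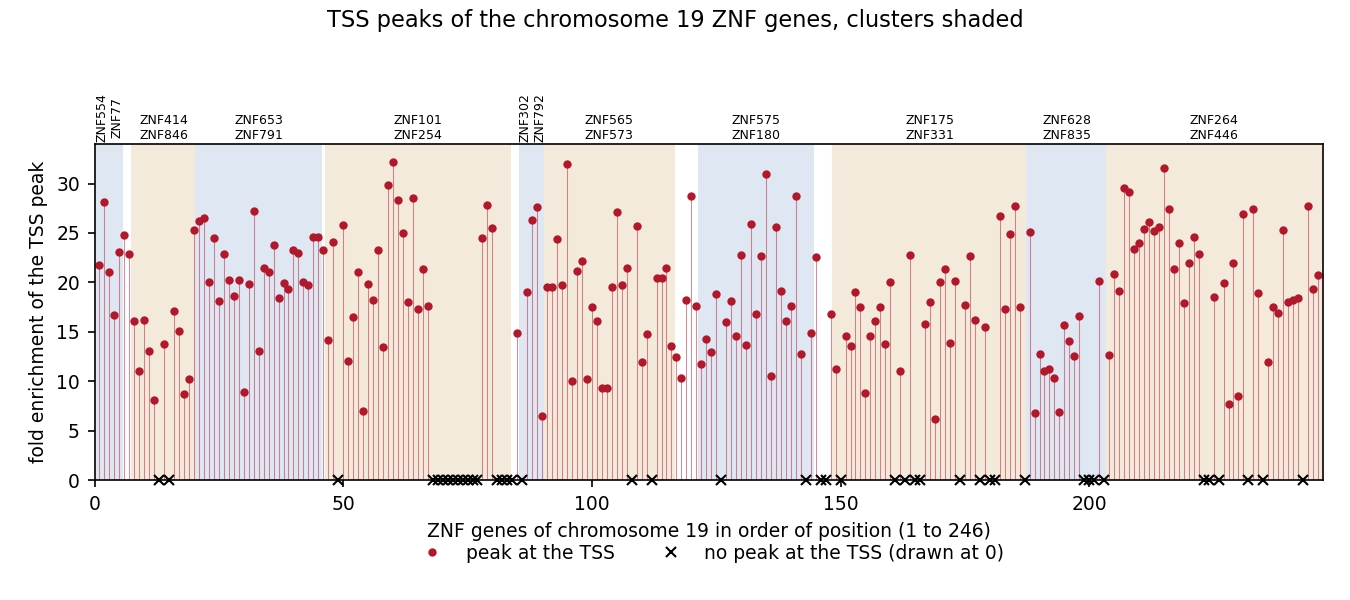
Fold enrichment of the TSS peak (vertical axis, no unit) for the 246 ZNF genes of chromosome 19 in order of position, each circle 1 gene with a peak and each cross 1 gene without, with clusters of 5 or more members shaded and labelled by their first and last member. Circles lie between 6.12 and 32.2, and 10 crosses in a row stand in the ZNF101 to ZNF254 cluster.

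The highest fold belonged to ZNF714 (32.2), whose TSS peak spanned chr19:21082003-21082304 with 81 fragments at the summit, at -69 bp from the start. ZNF529 followed at 31.95, ZNF773 at 31.6, ZNF225 at 31.0, ZNF430 at 29.9, ZNF543 at 29.5, ZNF304 at 29.1, ZNF574 at 28.8, ZNF112 at 28.8 and ZNF493 at 28.6. The 3 on the short arm (ZNF714, ZNF430 and ZNF493) came from the same cluster and the other 7 from the long arm, and all 10 had summits within 150 bp of the start. ZNF574 lies outside the clusters and had 108 fragments at its summit, the most of any member.

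The weakest TSS peaks rested on few fragments. ZNF83 had a fold of 6.12 from 8 fragments, with its summit at -979 bp from the start, at the edge of the window. ZNF792 had 6.52 from 9 fragments, ZNF579 had 6.80 from 14, ZNF581 had 6.86 from 18 and ZNF486 had 7.02 from 8. In contrast to ZNF83, the other 4 had summits between -101 and 61 bp from the start. The widest TSS peaks were those of ZNF446 (686 bp), ZNF444 (621 bp) and ZNF808 (588 bp), with folds of 20.8, 14.1 and 15.8.

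In 4 cases 1 peak lay at the starts of 2 members transcribed away from each other. ZNF490 and ZNF791, with starts 107 bp apart, shared a peak of fold 24.5 at chr19:12610685-12610976. ZNF540 and ZNF571, with starts 84 bp apart, shared one of fold 20.4, and ZNF146 and ZNF565, with starts 441 bp apart, one of fold 19.6. ZNF568 and ZNF829, 41 bp apart, shared one of fold 9.32. In the pairs other than ZNF146 and ZNF565 the accessibility of either promoter cannot be told apart from that of its partner. ZNF146 had a further peak of fold 17.9 over its own start.

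The members differed from other genes of the chromosome in how their TSS peaks went with base composition. GC content within 500 bp of the start had a median of 58.4% in members and 62.04% in other chromosome 19 genes, while the ratio of observed to expected CpG was 0.711 in members and 0.654 in other genes. Among starts of 45 to 50% GC, 14 of 16 members had a TSS peak (87.5%, interval 61.7 to 98.4%), against 4 of 41 other genes (9.76%, interval 2.72 to 23.1%). Between 50 and 55% GC it was 41 of 50 members (82.0%, interval 68.6 to 91.4%) and 30 of 124 other genes (24.2%, interval 16.96 to 32.7%). Between 55 and 60% GC it was 64 of 83 members (77.1%) and 130 of 270 other genes (48.1%).

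At higher GC content the difference was smaller. Between 60 and 65% GC a TSS peak was present at 55 of 62 members (88.7%) and 213 of 335 other genes (63.6%), and from 65% GC upward at 28 of 32 members (87.5%, interval 71.0 to 96.5%) and 314 of 421 other genes (74.6%, interval 70.1 to 78.7%). Below 45% GC, 0 of 3 members and 2 of 39 other genes had one, and 0 of 3 allows a share of up to 70.8%. The share thus climbed with GC content among the other genes, and among members it stayed between 77.1 and 88.7% from 45% GC upward. The lowest of these bins depends on the window: with GC content taken within 250 bp of the start, 45 to 50% held only 2 members, 1 of them with a TSS peak, and 0 of 35 other genes had one. In that window 11 of 14 members (78.6%) and 18 of 72 other genes (25.0%) had a TSS peak between 50 and 55% GC.

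**Figure D2:**
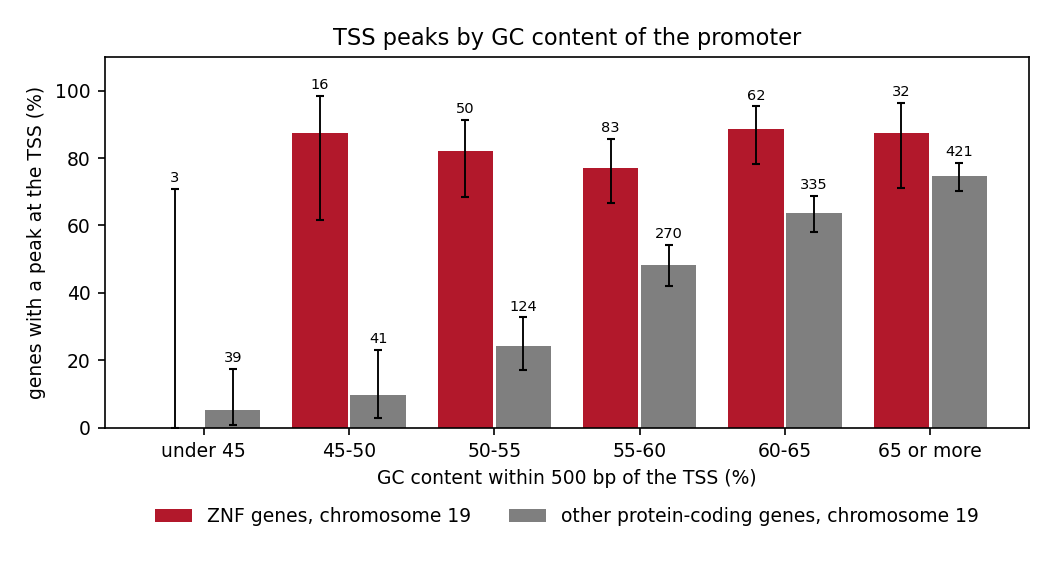
Share of genes with a TSS peak (vertical axis, %) by GC content within 500 bp of the start (horizontal axis, %), for ZNF genes (red, left) and other protein-coding genes (grey, right) of chromosome 19, with exact 95% intervals and the number of genes above each bar. From 45 to 50% GC the bars stand at 87.5% and 9.76%, and from 65% GC upward at 87.5% and 74.6%.

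Motifs were searched in the promoters that RefSeq gives for 216 of the 246 members, from 250 bases before to 50 after the start, on both strands. CCGGAAGT, a site of ETS family factors, was present in 20.8% of members' promoters, against 4.44% of those of other chromosome 19 genes and 6.19% of all 15843 protein-coding promoters in the table. CCAAT, the box bound by NF-Y, was present in 53.7% of members' promoters, against 37.05% of other chromosome 19 genes and 36.4% of all. Outside the ZNF101 to ZNF254 cluster, whose promoters are much alike, the members' shares were 46.5% for CCAAT and 24.1% for CCGGAAGT. GGGCGG, the GC box bound by SP1, was present in 67.6% of members' promoters, close to the 65.9% of other chromosome 19 genes, and in 58.5% of all. CCAAT occurred in 53.3% of the members with a TSS peak and 55.9% of those without. TATAAA was present in 1.85% of members' promoters, against 8.05% of other chromosome 19 genes and 9.63% of all.

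The other motifs were infrequent in both sets. TGACGTCA, the cAMP response element, was found in 3.24% of members' promoters and 2.59% of all, and GCATGCGC, the core of NRF1 sites, in 4.17% and 4.26%. The YY1 element was found in 0.926% of members' promoters and 1.37% of all, and the ZNF143 element in 0.926% and 0.372%. A match of letters is a description of the sequence only.

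Grouped by position, with a gap of more than 500 kb between starts opening a new cluster, the members fell into 20 groups. The 10 groups with at least 5 members held 232 of the 246. Of the members in these clusters 191 had a TSS peak (82.3%, interval 76.8 to 87.0%), and of the 14 outside them 11 did (78.6%, interval 49.2 to 95.3%). Other protein-coding genes inside the same clusters had a TSS peak in 48 of 112 cases (42.9%, interval 33.5 to 52.6%). Other genes of the chromosome outside the clusters did so in 645 of 1118 (57.7%, interval 54.7 to 60.6%). The median fold of these peaks was 18.8 inside the clusters and 16.1 outside, beside 19.4 in clustered members. The median widths were 261.5, 286 and 247 bp. Single clusters went either way. In the ZNF264 to ZNF446 cluster the median fold was 23.1 in other genes and 21.9 in members. In the ZNF565 to ZNF573 cluster it was 16.0 and 19.6.

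In 2 clusters every member had an accessible promoter. All 25 members of the ZNF653 to ZNF791 cluster at chr19:11483427-12640098 had a TSS peak (interval 86.3 to 100%), with a median fold of 20.3 and ZNF878 at the top (27.2). All 5 of the small ZNF554 to ZNF77 cluster near the end of the short arm did too, at a median fold of 21.7, led by ZNF555 (28.1). In the ZNF565 to ZNF573 cluster at chr19:36182276-37817300 it was 24 of 26 (92.3%, median fold 19.6), with ZNF529 highest.

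The remaining clusters of the long arm had shares from 74.4 to 91.3%. The ZNF575 to ZNF180 cluster had TSS peaks at 21 of 23 members (91.3%, median fold 16.8, ZNF225 highest), and the ZNF302 to ZNF792 cluster at 4 of 5, ZNF30 being highest at 27.6. In the ZNF264 to ZNF446 cluster next to the end of the long arm it was 37 of 43 (86.0%, median fold 21.9, ZNF773 highest). The ZNF175 to ZNF331 cluster had them at 29 of 39 members (74.4%, interval 57.9 to 87.0%, median fold 17.5), with ZNF761 at 27.7, and the ZNF628 to ZNF835 cluster at 12 of 16 (75%, interval 47.6 to 92.7%, median fold 12.7), with ZNF628 at 25.1. On the short arm, the ZNF414 to ZNF846 cluster had them at 11 of 13 (84.6%, median fold 13.8), with ZNF846 at 25.3. The ZNF628 to ZNF835 and ZNF414 to ZNF846 clusters were those whose shares moved most among peaks with a -log10 q of at least 20, where 43.75% of the ZNF628 to ZNF835 cluster and 53.8% of the ZNF414 to ZNF846 cluster remained with a TSS peak.

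**Figure D3:**
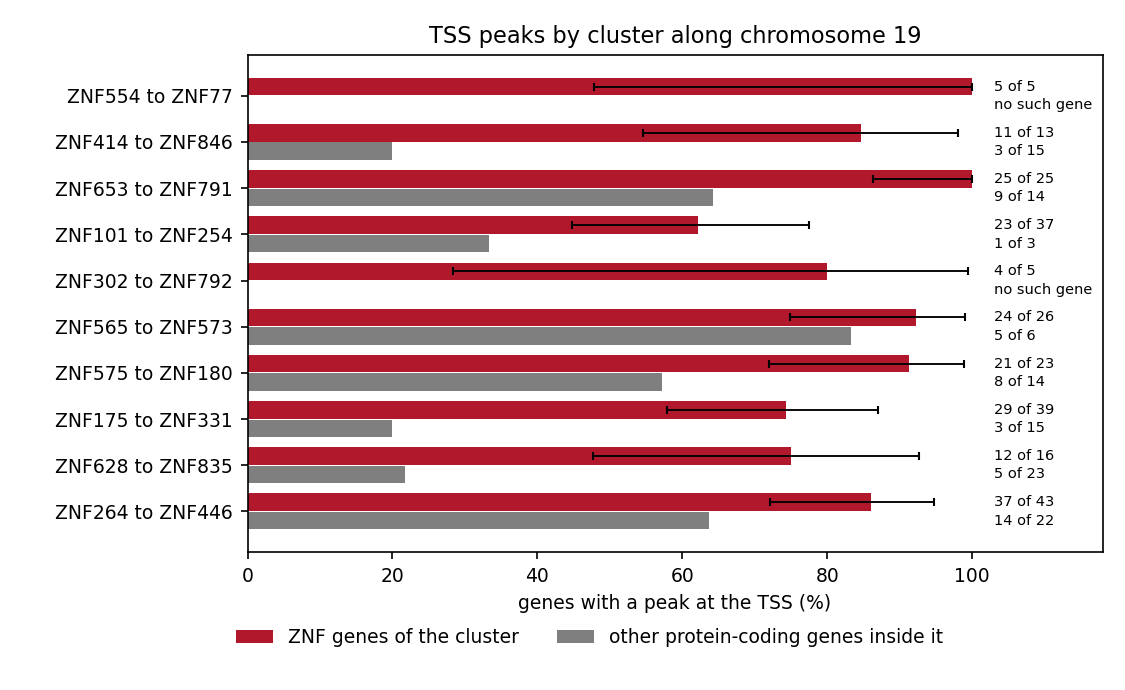
Share of genes with a TSS peak (horizontal axis, %) in each cluster of 5 or more members, for ZNF genes (red, upper bar, with exact 95% intervals) and other protein-coding genes inside the cluster (grey, lower bar), with counts at the right. The red bar is longer than the grey one in each of the 8 clusters that hold other genes, and the ZNF101 to ZNF254 cluster has the shortest red bar at 62.2%.

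Taken as a whole, the clusters held fewer peaks per length than the rest of the chromosome, and they differed widely. Over 14.4 Mb, the 10 clusters had 28.5 peaks per Mb, of which 10.9 per Mb lay away from any protein-coding TSS. The rest of the chromosome had 49.5 peaks per Mb, with 33.3 per Mb away from a TSS. Among the clusters the peaks away from a TSS ranged between 3.06 per Mb (ZNF565 to ZNF573), followed by 3.36 per Mb (ZNF101 to ZNF254), and 26.8 per Mb (ZNF653 to ZNF791). Counting all peaks, the ZNF653 to ZNF791 cluster (57.1 per Mb) and the ZNF264 to ZNF446 cluster (49.6 per Mb) were not below the rest of the chromosome.

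The lowest share was that of the ZNF101 to ZNF254 cluster at chr19:19668796-24129968, which borders the centromere on the short arm, where 23 of 37 members had a TSS peak (62.2%, interval 44.8 to 77.5%). Those that had one had a median fold of 21.3, beside 19.3 over all members. The 14 without were not spread evenly, since 10 of them followed each other: ZNF208, ZNF257, ZNF676, ZNF729, ZNF98, ZNF492, ZNF99, ZNF723, ZNF728 and ZNF730. Their starts lie between chr19:22010943 and chr19:23117025, 1106 kb in all. ZNF681, ZNF726 and ZNF254 formed a shorter run of 3 further on, and ZNF506 stood alone.

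Around these 10 genes no peak of any kind was called over 1398 kb, from chr19:21852230 to chr19:23250179. No other protein-coding start lies there and no base of it is unsequenced. The only longer stretch without a peak on chromosome 19 was the 3651 kb one over the centromere. The members on either side were accessible, ZNF43 at a fold of 17.6 on one flank and ZNF724 at 24.5 on the other, with ZNF91 (27.8) and ZNF675 (25.5) just beyond. The members farthest from any peak were ZNF492 (615856 bp), ZNF98 (570117 bp), ZNF99 (466029 bp), ZNF729 (434212 bp) and ZNF723 (417889 bp). With this cluster left out, an alternative chosen after seeing the data, the share over the remaining 209 members was 85.6% and the median fold 19.1.

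The promoter sequences of these 10 genes were nearly as similar to that of ZNF714 as those of other cluster members with a TSS peak. Aligned over 300 bases with the promoter of ZNF714, the 10 had a median identity of 79.5% (range 54.7 to 84.3%, ZNF676 being lowest), and the 22 other members of the cluster with a TSS peak had 81.5% (range 59.7 to 91.0%). Members outside the cluster had a median of 59.7% (range 52.0 to 68.3%). ZNF676 also had the lowest GC content of the 10, 39.6% within 500 bp of its start, while the medians were 57.6% in the run and 53.2% in the 22 with a peak.

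All 29 promoters of this cluster in the RefSeq table held CCAAT, and none held CCGGAAGT as a full word. Without its last base, as CCGGAAG, that word can be read on the opposite strand in each printed promoter of this cluster except that of ZNF714. The longer word TCCAATCA, chosen after the sequences were seen, was present in 29 of 29 here, in 12.3% of the members' promoters outside the cluster and in 1.81% of all protein-coding promoters. It can be read at least once in each of the 6 printed promoters of this cluster.

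Reads from copied sequence can map to several places, so the uniqueness of the promoters was measured. The methods of the study refer to uniquely mapped pairs, so reads without a unique place may be absent from the data. Of the words of 50 bases within 150 bp of the start, the median share found once on chromosome 19 was 100% in the run and in members with a TSS peak. In the run 6 of 10 promoters were unique throughout, and the lowest was ZNF208 at 61.9%, against 19 of 22 other members of the cluster with a TSS peak, the lowest at 92.9%. The part of this difference in the missing peaks was not tested. Over all members, 186 of 202 with a TSS peak and 38 of 44 without were unique throughout. Copies on other chromosomes and the mappability of the stretch between promoters were not examined.

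**Figure D4:**
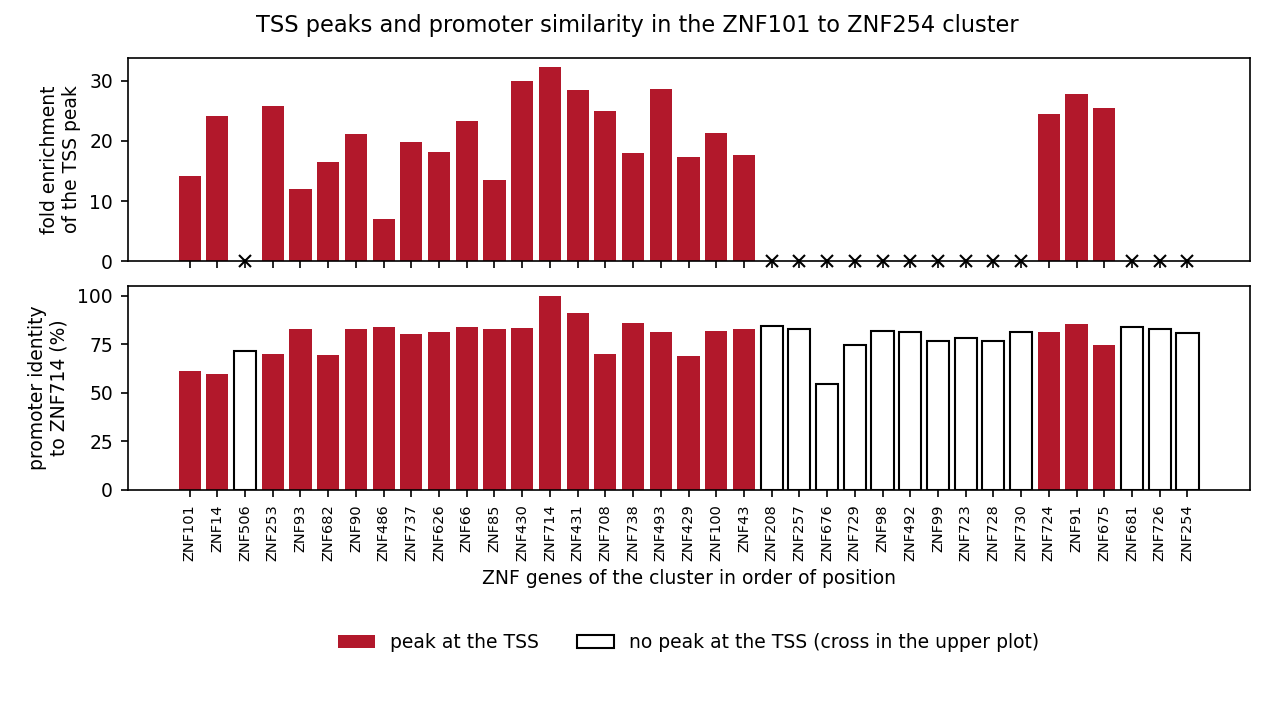
Fold enrichment of the TSS peak (upper plot, no unit) and identity of the 300-base promoter to that of ZNF714 (lower plot, %) for the 37 ZNF genes of the ZNF101 to ZNF254 cluster in order of position. Filled bars are genes with a TSS peak, and open bars, with crosses above, those without. The 10 open bars in a row from ZNF208 to ZNF730 have identities from 54.7 to 84.3%, beside a range of 59.7 to 91.0% for the filled bars other than ZNF714 itself.

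The 44 members without a TSS peak were close to the rest in base composition and finger number. Their median GC content was 56.8%, against 58.6% in the 202 with a TSS peak, and their ratio of observed to expected CpG was 0.677, against 0.715. Their genes had a median length of 30898 bp, against 23274.5 bp. They encoded a median of 12.5 fingers, against 13. Their nearest peak lay at a median of 28210.5 bp from the start.

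A few had their nearest peak within some kb of the start, and such a peak need not belong to the gene. Of those named next, only ZNF114 and ZNF331 gained a TSS peak with a window of 2500 bp. ZNF114 had its nearest peak 1191 bp from the start, just outside the window, at a fold of 6.22. ZNF331, an imprinted gene first known from rearrangements in thyroid adenomas, followed at 2285 bp with 12.3, ZNF665 at 3552 bp with 9.73, ZNF302 at 3772 bp with 21.6 and ZNF835 at 4884 bp with 5.10. Counting the start of any annotated transcript, 6 more members gained a peak (ZNF254, ZNF536, ZNF875, ZNF404, ZNF114 and ZNF331), giving 208 of 246 (84.6%), against 805 of 1230 other chromosome 19 genes (65.4%).

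The share with a TSS peak was similar among members that encode different kinds of protein. Counted in the translated canonical transcripts, the members had a median of 13 C2H2 fingers (range 1 to 39), and 208 of 246 had a KRAB box by a pattern that misses divergent boxes. A TSS peak was present at 169 of 208 members with the box (81.25%, median fold 19.9) and 33 of 38 without it (86.8%, median fold 16.0). With 13 or more fingers it was 102 of 124 (82.3%), with 9 to 12 fingers 62 of 76 (81.6%) and with 1 to 8 fingers 38 of 46 (82.6%). ZNF729, with the most fingers (39), had no TSS peak, and ZNF91, with 32, had one of fold 27.8.

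Members known for silencing retroelements were mostly accessible, 6 of 8 (75%), beside 82.1% of all members. ZNF91, which represses SVA elements, had a TSS peak of fold 27.8, and ZNF93, which represses older L1 elements, one of 11.99. ZNF417 and ZNF587, a pair of close paralogs that act on HERV-K, had 26.9 and 21.99. ZNF808, which represses MER11 elements and is needed for human pancreas development, had 15.8, and ZNF649, an L1 binder, had 14.6. ZNF534 and ZNF320 had none, their nearest peaks lying 31231 and 25736 bp away. The ZNF417 peak also lay at the start of another protein-coding gene model.

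Of 9 members known for promoter methylation in tumours, 3 had a TSS peak (33.3%, interval 7.49 to 70.1%), beside 82.1% of all members. These were ZNF549 at a fold of 27.4, ZNF582 at 12.5 and ZNF382 at 10.0. The summit at ZNF382 lay at -497 bp from the start with 15 fragments, that at ZNF549 at -45 bp with 67. The other 6, ZNF154, ZNF671, ZNF132, ZNF331, ZNF471 and ZNF677, had none at the canonical start. Of these only ZNF331 had a peak at the start of another annotated transcript. ZNF154 and ZNF671 are neighbours within the ZNF264 to ZNF446 cluster, where most members were accessible, with starts 18.4 kb apart. ZNF471 stood between ZNF667 and ZNF470, 3 consecutive members without a TSS peak, and ZNF677 beside ZNF665. DNA methylation itself was not measured.

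The 6 without a TSS peak did not have the poorest promoters in GC. Their GC content within 500 bp of the start ranged from 55.1% (ZNF154) to 67.2% (ZNF331), beside a median of 58.4% over all members. Among the printed promoters, the 14 CG of ZNF549, which had a peak, stood beside 12 in ZNF132 and 7 in ZNF154, which had none.

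A further 5 members of known function all had TSS peaks (5 of 5, interval 47.8 to 100%), beside 82.1% of all members. ZNF675, which binds TRAF6 and restrains NF-kB signalling, had a fold of 25.5, ZNF224, a repressor of the aldolase A gene, 22.7, ZNF43 17.6, ZNF274 17.5 and ZNF45 16.0. ZNF274 recruits SETDB1 to the 3' exons of ZNF genes, and its highest peak had its summit 309 bp downstream of the start.

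Most genes on a list of repression machinery and other heterochromatin factors were accessible as well. Of these 28 genes 26 had a TSS peak (92.9%, interval 76.5 to 99.1%), beside 61.5% of all protein-coding genes. The list is broad, and not all of its genes are factors through which KRAB proteins act. The highest were MPHOSPH8 of the HUSH complex (34.5), HDAC1 (31.1), the demethylase gene KDM4A (27.1) and SETDB2 (26.3), while TRIM28, itself on chromosome 19, had 17.7 and SETDB1 25.5. The KDM4A and SETDB2 peaks also lay at the start of another protein-coding gene. ATF7IP, a partner of SETDB1, and ZFP57, a KRAB protein of imprinted loci, had none.

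Away from their canonical starts the ZNF genes held few peaks. A peak within the gene, outside the TSS window of every protein-coding gene, was present in 48 of 246 members (19.5%, interval 14.8 to 25.0%), against 507 of 1230 other chromosome 19 genes (41.2%, interval 38.5 to 44.03%). Over all chromosome 19 genes the share was 37.6%. The members are the longer genes, with a median of 25901.5 bp, against 13908.5 bp. Per length, they held 0.982 peaks per 100 kb of gene body (74 peaks), against 3.89 per 100 kb (1077 peaks). Among peaks with a -log10 q of at least 20 the shares were 7.72% of members and 22.9% of other genes. Some gene body peaks may lie at other annotated starts, because only the windows of canonical starts were left out. The uniqueness of the sequence was not measured in gene bodies or last exons, and the methods refer to uniquely mapped pairs.

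The rate was lower in members at each gene length. Below 10 kb it was 2.73 peaks per 100 kb in members and 4.22 in other genes, from only 4 peaks in 25 members. From 10 to 20 kb it was 1.13 and 4.40, from 20 to 40 kb 0.761 and 4.22, and from 40 kb upward 1.04 and 3.53. The share of genes with a body peak, which does not count length, was 16.0% in members and 14.6% in other genes below 10 kb, the only class in which it was not lower in members.

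**Figure D5:**
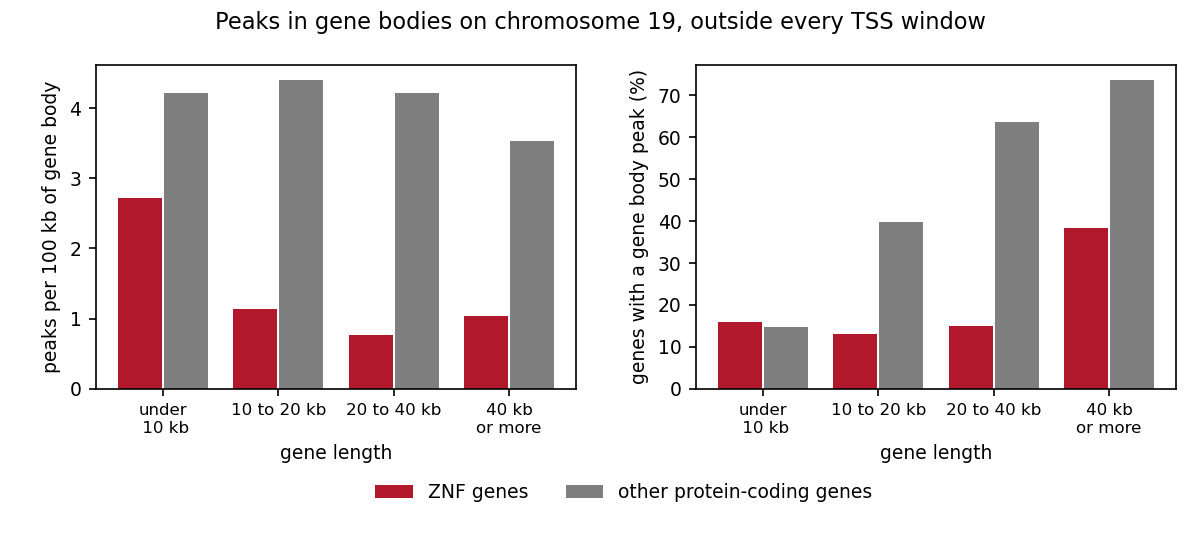
Peaks per 100 kb of gene body (left plot) and share of genes with a gene body peak (right plot, %) by gene length, for ZNF genes (red, left bar) and other protein-coding genes (grey, right bar) of chromosome 19, leaving out peaks in the TSS window of any protein-coding gene. In the left plot the red bars lie between 0.761 and 2.73 and the grey bars between 3.53 and 4.40.

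The last exon, which in most members encodes the fingers, was nearly free of peaks. It held one in 5 members (2.03%, interval 0.663 to 4.68%), against 63 other genes (5.12%, interval 3.96 to 6.51%), and these intervals overlap. Over all chromosome 19 genes the share was 4.61%. Per length there were 0.543 peaks per 100 kb of last exon in members, from 5 peaks, and 4.40 in other genes, from 66. The 5 were ZNF439, ZNF433, ZNF875, ZNF473 and ZNF814, named because they are so few.

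Most of the 48 members with gene body peaks had 1 or 2. ZNF536, a long gene of the nervous system outside the clusters, had 5 and no TSS peak. ZNF846 and ZNF83 had 4 each, and ZNF331, ZNF653 and ZNF787 had 3 each. ZNF83 thus combined the weakest TSS peak of all members with several peaks inside the gene, and ZNF331 had body peaks without one at its canonical start, its nearest lying 2285 bp away.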

How the data were processed

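Peaks came from 1 bulk ATAC-seq library of HepG2 cells. The methods state cutadapt for trimming, Bowtie2 within snakePipes for mapping to GRCh38, samtools for duplicate removal and MACS2 for the peaks of this library. They also refer to uniquely mapped pairs. Of the tools in the sample records only deepTools (3.5.5) has a version (MACS2: not given in the sources used here). Peak names point to short fragments, which may be part of the library only. The authors deposited a score per peak (99.96% equal 10 times the -log10 q, rounded down). They also deposited the fold, a ratio of summit height to background, with the -log10 p, the -log10 q and the summit position. A shift of read ends to the Tn5 cut, which the sources do not mention, would move edges slightly.

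Gene positions were those of GENCODE 44, and overlap was tested on simulated data. Summit fragments are the whole numbers that give the fold and the -log10 p within 0.01, and 112 peaks of chromosome 19 had more than 1 solution. Gene body peaks left out any peak in a protein-coding TSS window. Fingers were counted by a pair of cysteines with 2 or 4 residues between them, 12 further residues and a pair of histidines with 3 to 5 between them. No protein table was used, so fingers and KRAB boxes were counted in canonical coding sequences translated from the genome in place of RefSeq proteins. The YY1 and ZNF143 elements are named without their letters. Promoter identity came from global alignment. Software was Biopython 1.88, scipy 1.17.1, pandas 2.3.3, numpy 2.4.6 and matplotlib 3.10.9 under Python 3.11.15.

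With 1 library no test between groups was made. Named genes are the 10 highest and 5 lowest folds, the highest of each cluster of 5 or more, the 3 widest peaks, the 5 with most body peaks, the 5 nearest and 5 farthest from a peak among those without, member pairs sharing a peak, the listed members, and of the repression machinery those without a peak and the 4 highest. Other named genes were chosen after their values were seen. The members and lists were chosen with earlier results of these data known. Alternatives were other TSS windows, summit position, -log10 q limits, any transcript start, other cluster gaps, unshared peaks and GC within 250 bp.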

Additional observations from a re-analysis of the deposited data

How the results depend on the processing

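Of 44 recomputed main values 39 moved by less than their interval, as did 58 of 60 values for single clusters. The share of members with a TSS peak fell to 70.7% among peaks with a -log10 q of at least 20, where the share of other chromosome 19 genes was 44.4%, and to 69.1% when peaks at another protein-coding start were not counted. Across 6 alternatives it lay between 1.29 and 1.59 times the share of other chromosome 19 genes. The lowest share of any cluster became 43.75% (ZNF628 to ZNF835) at a -log10 q of at least 20 and 28.6% (ZNF100 to ZNF91, 4 of 14 members) with a cluster gap of 250 kb, which cuts the ZNF101 to ZNF254 cluster into smaller ones. The share with a gene body peak became 7.72% among peaks that passed the -log10 q limit of 20. The causes were not tested.

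The weakest TSS peaks rested on 8 summit fragments, and a member without a peak is one not detected at this depth. No paired analysis was possible because each group held 1 library and 1 of them was analysed here. Intervals take the genes as independent, which duplicated neighbours are not. The canonical start is a choice of annotation, and expression was not measured.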
